A study of Mus musculus with 6 samples.

Results

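Macrophages were derived from bone marrow of C57BL/6 mice over 5 days in M-CSF at 10 ng/ml and treated for 24 hours with IL4, the cytokine that drives alternative activation, together with 1 of 5 compounds. The libraries of IL4 with fatostatin, with betulin and with 25-HC are here called the retention libraries, and those of IL4 with PF429424 and with 1,10-Phen the protease libraries. They make up 5 of the 6 libraries of the series, and the sixth, IL4 with no compound, shows where each gene stood without one. The split follows the common use of such compounds as tools against SREBP, since the labels give no target and no dose for any compound and expand neither 25-HC nor 1,10-Phen. Every library received IL4, each treatment is 1 library, and the labels do not say whether the cultures shared animals. A difference between the sides is therefore a difference between 5 single cultures, with no replicate check.

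SREBP transcription factors drive the genes by which a cell makes sterols and fatty acids. They are made as membrane proteins of the endoplasmic reticulum, held there by the escort SCAP and the INSIG proteins when sterols are plentiful, and carried to the Golgi when sterols are scarce. In the Golgi, site-1 protease (Mbtps1) and site-2 protease (Mbtps2) cut the active factor free. The same pair of proteases also frees ATF6, a sensor of unfolded protein that switches on chaperone genes of the endoplasmic reticulum, so that keeping SREBP in the endoplasmic reticulum and blocking its cleavage are different points of attack on partly different sets of factors. The comparison asks which genes told the 3 libraries of the first kind apart from both of the second.

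The 6 libraries held between 20181396 and 21169667 estimated counts, and 11898 genes with at least 1 CPM, the count scaled to a common library size, in at least 1 library were compared. Of 20 macrophage markers all passed that filter, and their summed level was 17174, 12776 and 9492 CPM with fatostatin, betulin and 25-HC, against 13379 and 10073 CPM with PF429424 and 1,10-Phen, so the cells carried their labelled type on both sides. Among markers of other cell types, the dendritic cell list summed to 1137, 1102 and 1506 CPM in the retention libraries, against 1388 and 351.9 CPM in the protease libraries. The highest sum in any library was 913.9 CPM for neutrophil, 118.6 CPM for stromal and 73.2 CPM for endothelial markers, each with 1,10-Phen, and 23.5 CPM for mast cell markers with 25-HC. T cell, B cell and erythroid markers reached at most 9.08, 5.03 and 0.56 CPM. The part of such cells in the results was not tested.

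The sides did not form compact blocks. Spearman's correlation of log2 CPM across the 11898 genes, which are not independent replicates, was between 0.975 and 0.990 within the retention libraries. It was between 0.982 and 0.988 for PF429424 with each retention library, but 0.944 for PF429424 with 1,10-Phen. A count of genes that differed at least 2-fold beyond counting error between 2 libraries gave a similar order of distances. Within the retention libraries it was 360 for fatostatin and betulin, 431 for betulin and 25-HC, and 853 for fatostatin and 25-HC. PF429424 differed from betulin in 407 genes, from 25-HC in 439 and from fatostatin in 635, and from 1,10-Phen in 2043. The 1,10-Phen library stood apart from all others, with 1948 to 2286 genes against the retention libraries. The library of PF429424 thus lay nearer to each retention library than to the other protease library.

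**Figure D1:**
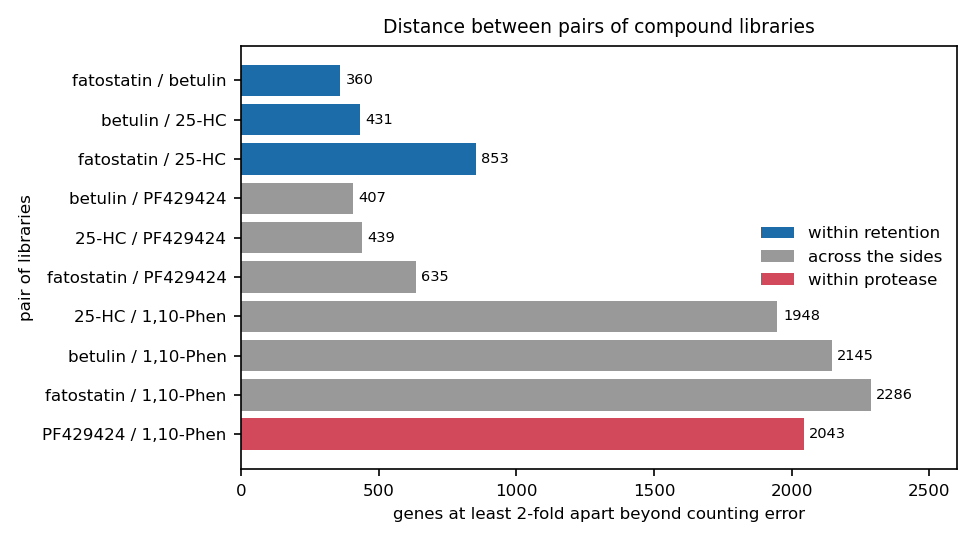
Bars give the number of genes, of 11898 compared, that were at least 2-fold apart beyond counting error for each of the 10 pairs of compound libraries, coloured by whether the pair lies within the retention libraries, across the sides or within the protease libraries. The 3 pairs of PF429424 with a retention library, at 407 to 635 genes, fall within the spread of the retention pairs, while all 4 pairs with 1,10-Phen reach at least 1948.

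A gene was called separated when the nearest libraries of both sides were at least 2-fold apart and the exact Clopper-Pearson 95% interval of that pair of counts, which covers counting error only, excluded no change. That distance is called the gap, on the log2 CPM scale with a prior count of 2, and is positive where every retention library was higher. Of the 11898 genes, 28 were separated and higher in the retention libraries (0.235%) and 9 were separated and lower (0.0756%), 0.311% in all. The range inside a side, highest minus lowest log2 CPM, had a median of 0.35 over all genes in the retention libraries and 0.41 in the protease libraries. For 22 of the 28 and 5 of the 9 the gap was wider than either range. A range of at least 1 was found for 1077 genes in the retention libraries and for 2080 in the protease libraries, where 2 distant libraries are compared.

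In a far larger set the ranges lay apart by any distance at all, with no demand on its size or on counting error. There were 1302 such genes higher in the retention libraries (10.9%) and 1254 lower (10.5%), 21.5% in all. With library totals in place of TMM factors, which moved the median side difference of all genes by 0.14, these counts became 2384 and 516, and with log2(FPKM + 1), which moved it by 0.10, they were 2342 and 511. Shares of a gene list are read below against 10.9% and 10.5%. An edgeR quasi-likelihood fit of 3 libraries against 2, in which the error is the spread between different compounds of a side, called 0 of 11898 genes (0%) at an adjusted p of 0.05. The lowest adjusted p was 0.21, for Ltf. At an unadjusted p under 0.05 the fit had 274 genes higher (2.3%) and 382 lower (3.21%), 5.51% in all, against 481 higher and 193 lower with library totals. A DESeq2 Wald test of the same libraries called 44 genes (0.37%), and an exact two-sided permutation test of 3 against 2 cannot give a p below 0.2. The edgeR count depended on 1 library: without PF429424 it was 1445, with 1,10-Phen as the lone protease library.

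**Figure D2:**
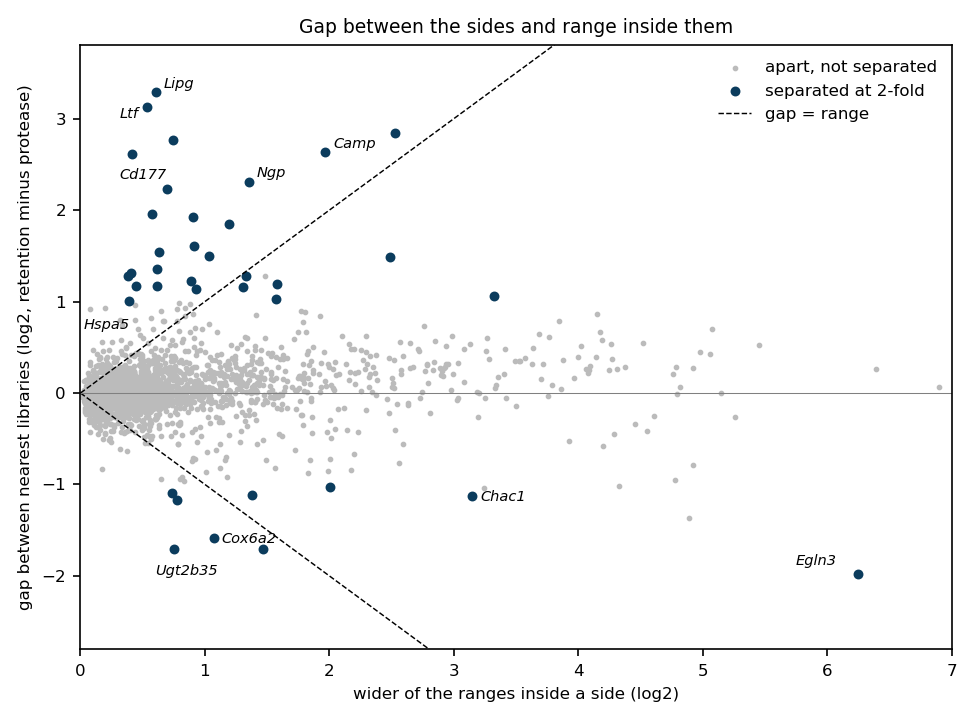
Each point is 1 of the 2556 genes whose ranges lay apart, with the wider of the ranges inside a side on the x axis (log2) and the gap between the nearest libraries, retention minus protease, on the y axis (log2). Dark points are the 37 separated genes, grey points past a gap of 1 in size are 4 genes whose nearest pair was within counting error, and points outside the dashed lines have a gap wider than either range.

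Of the 28 separated genes that were higher in the retention libraries, 8 belong to a list of neutrophil markers. Ltf encodes lactoferrin, an iron-binding protein of the secondary granules, and had 49.6, 44.7 and 64.8 CPM with fatostatin, betulin and 25-HC, against 5.02 and 3.48 CPM with PF429424 and 1,10-Phen and 31.5 CPM with IL4 alone. The nearest libraries, betulin and PF429424, were 8.76-fold apart, a gap of 3.13 on the log2 scale with a counting interval of 2.86 to 3.46. All 3 retention libraries were above the IL4 library and both protease libraries were far below it. The edgeR estimate was 3.64 with an SE of 0.29 and an adjusted p of 0.21.

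Ngp, neutrophilic granule protein, had 89.9, 77.1 and 110.1 CPM with fatostatin, betulin and 25-HC, against 15.5 and 6.00 CPM with PF429424 and 1,10-Phen and 62.0 CPM with IL4 alone. Camp, the precursor of the antimicrobial peptide cathelicidin, had 14.1, 14.3 and 13.9 CPM in the retention libraries, against 2.17 and 0.48 CPM in the protease libraries and 10.1 CPM with IL4 alone. The 3 retention values of Camp were almost the same (range 0.03), while the range of the protease libraries was 1.97. Lcn2, lipocalin-2, which binds bacterial iron carriers, showed the reverse, with 15.8, 14.7 and 24.6 CPM in the retention libraries and 2.07 and 2.04 CPM in the protease libraries, against 11.9 CPM with IL4 alone. Cd177, a neutrophil surface glycoprotein that is not on the list, had 6.96, 6.71 and 7.88 CPM in the retention libraries, against 0.74 and 1.02 CPM in the protease libraries. Its gap of 2.61 was 6.27 times the wider range, the highest such ratio of any separated gene.

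S100a8 and S100a9 encode the subunits of calprotectin, an abundant protein of neutrophil cytoplasm. S100a9 had 65.3, 96.6 and 81.5 CPM in the retention libraries, against 17.1 and 9.11 CPM in the protease libraries and 53.8 CPM with IL4 alone. S100a8 had 25.4, 46.3 and 27.9 CPM in the retention libraries, against 6.99 and 3.0 CPM in the protease libraries and 21.1 CPM with IL4 alone. Betulin was the highest of the 5 for both genes, whereas 25-HC was the highest for Ltf, Ngp and Lcn2. Prtn3, the serine protease proteinase 3, was lower in level, with 1.98, 2.44 and 1.27 CPM in the retention libraries, against 0.49 and 0.27 CPM in the protease libraries, and Chil1, the other listed gene, was below 3 CPM in every library.

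Other separated genes that were higher in the retention libraries are not on the neutrophil list, like Cd177 above. Cebpe, the transcription factor of late granulocyte development, had 2.35, 2.02 and 2.0 CPM in the retention libraries, against 0.84 and 0.59 CPM in the protease libraries. Pglyrp1, a peptidoglycan-binding granule protein, had 2.87, 2.20 and 2.69 CPM against 0.49 and 0.80 CPM. Hp (haptoglobin), Lrg1, Itgb2l, Ms4a3, Plac8, Wfdc21 and I830127L07Rik were separated too, each below 3 CPM in every library, with gaps between 1.16 and 1.96. Cebpe, Pglyrp1 and these genes were below 1 CPM in both protease libraries. They passed the expression filter only through other libraries, where they were higher. Plac8 and I830127L07Rik had estimated counts that are not whole in at least 1 library, so their levels are uncertain.

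The neutrophil marker list, chosen with earlier results of these data known, holds 15 genes, of which 14 passed the expression filter. Of those 14, 8 were separated and higher in the retention libraries and 11 lay apart in that direction, against 0.235% and 10.9% of all genes. The median side difference was 2.60 on the log2 scale, and 0.01 over all genes. Prtn3 and Chil1, among the 8, were below 1 CPM in both protease libraries and passed the filter only through other libraries. Mpo (15.6, 15.8 and 9.65 against 6.30 and 0.37 CPM) and Elane (3.01, 3.85 and 2.19 against 1.28 and 0.11 CPM), enzymes of the primary granules, lay apart without reaching 2-fold, because PF429424 stood nearer to 25-HC than 1,10-Phen did. Ly6g stayed under the filter, with 0.24, 0.23 and 0.55 CPM in the retention libraries and no counts in the protease libraries. The limit that a count of 0 allows, 3 counts, comes to between 0.142 and 0.149 CPM per library before scaling.

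The other 3 compared members of the list had overlapping sides. Csf3r, the G-CSF receptor, had 95.3, 39.3 and 28.9 CPM in the retention libraries, against 25.4 and 47.3 CPM in the protease libraries. Cxcr2 had 4.52, 4.97 and 5.78 CPM against 4.09 and 9.32 CPM, and Mmp8, a collagenase, 96.7, 460.4 and 456.2 CPM against 381.9 and 831.7 CPM. The summed level of the list overlapped as well, at 479.7, 822.8 and 831.0 CPM against 468.9 and 913.9 CPM, with 827.7 CPM for IL4 alone. In bulk RNA, fewer cells of a type and less RNA per cell cannot be told apart, and the part of neutrophil or precursor cells in these differences was not tested.

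**Figure D3:**
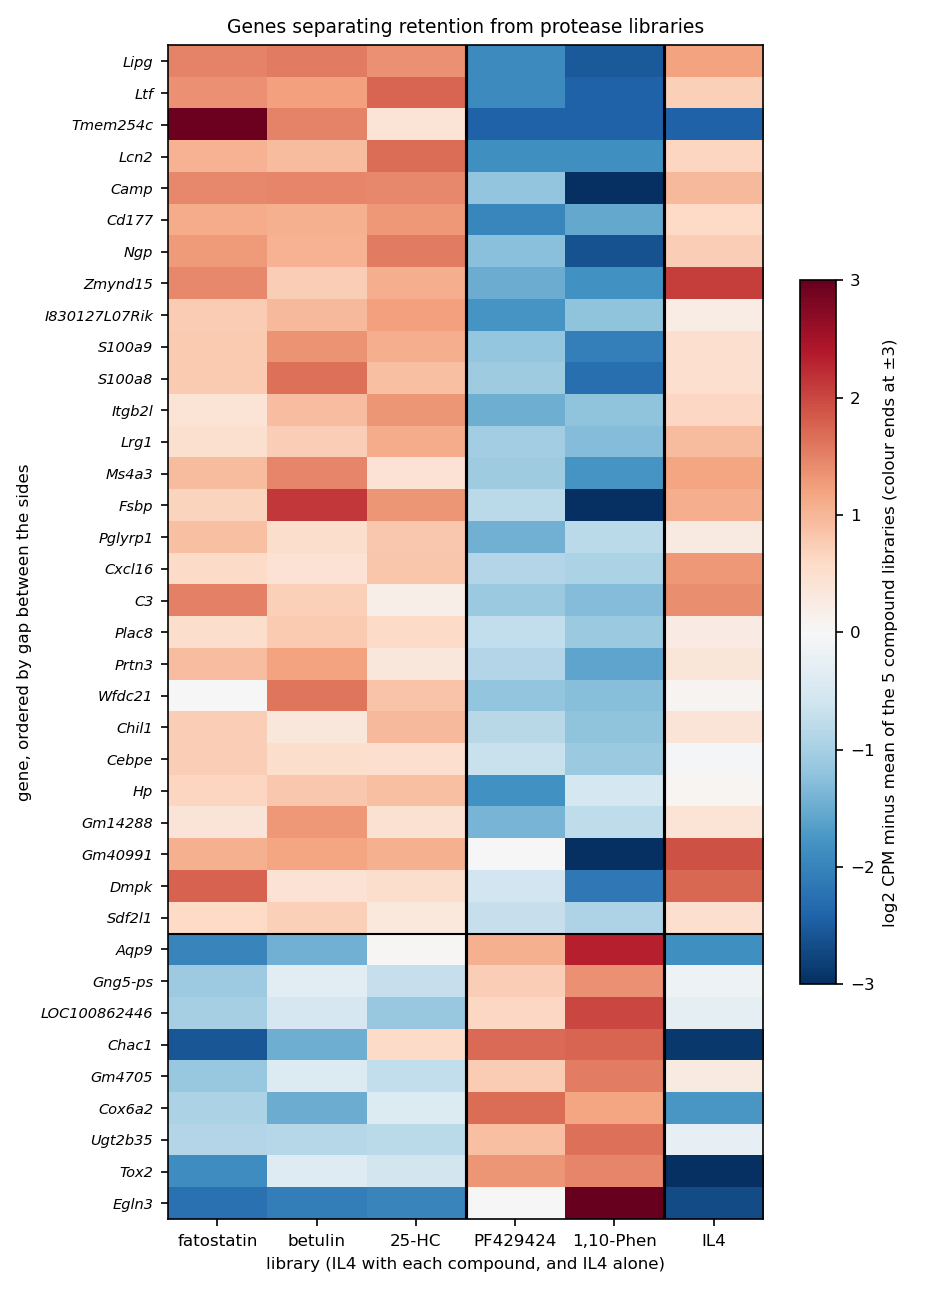
Rows are the 37 separated genes ordered by gap and columns the 6 libraries, with retention, protease and IL4 libraries divided by black lines. Colour gives log2 CPM minus the mean of the 5 compound libraries, and the IL4 column looks like the retention columns for most rows, since it lay nearer to the retention libraries in 34 of the 37 genes.

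The remaining separated genes are on no cell type marker list either. Lipg, endothelial lipase, which cleaves phospholipids of high-density lipoprotein, had 4.05, 4.27 and 3.73 CPM in the retention libraries, against 0.30 and 0.16 CPM in the protease libraries and 3.31 CPM with IL4 alone. At 9.79-fold between the nearest libraries it had the widest gap of the separated genes, 3.29 with a counting interval of 2.48 to 5.15. Lipg was below 1 CPM in both protease libraries and passed the expression filter only through other libraries, where it was higher. Cxcl16, a membrane-bound chemokine and scavenger receptor, had 33.3, 30.0 and 39.8 CPM in the retention libraries, against 12.1 and 11.4 CPM in the protease libraries and 54.6 CPM with IL4 alone. Both protease libraries lay within 0.08 of each other for Cxcl16, and the IL4 library was above all 5. C3, the central complement protein, had 97.6, 56.4 and 38.7 CPM in the retention libraries, against 15.9 and 13.9 CPM in the protease libraries and 89.6 CPM with IL4 alone. Its gap of 1.28 was narrower than the range of 1.33 inside the retention libraries, where it was highest with fatostatin and lowest with 25-HC.

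Dmpk, the protein kinase of the myotonic dystrophy locus, was also highest with fatostatin, at a gap of 1.02, with 83.0, 33.1 and 34.9 CPM against 16.2 and 5.41 CPM and 80.2 CPM with IL4 alone. Zmynd15, a zinc-finger protein known in the testis of mice as a transcriptional repressor, had 2.87, 1.73 and 2.23 CPM against 0.30 and 0.21 CPM, and 4.47 CPM with IL4 alone. Below 1 CPM in both protease libraries, it passed the filter only through other libraries. The remaining higher genes, Tmem254c, Fsbp, Gm14288 and Gm40991, had estimated counts that are not whole in at least 1 library, so their reads were shared with other genes and their levels are uncertain. Tmem254c had no counts in either protease library or with IL4 alone, and its gap is set by the prior count. Fsbp and Gm14288 were below 1 CPM in both protease libraries.

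IL4 alone lay nearer to the retention libraries for 26 of the 28 higher genes, with Tmem254c and Hp as the exceptions, and inside their range for 11. For the 9 lower genes it lay nearer to the retention libraries in 8, with Gm4705 as the exception. The separation therefore ran mostly between both protease libraries and the other 4. The library that set the limit of a gap was PF429424 for 22 of the 28 higher and 8 of the 9 lower genes, since 1,10-Phen lay farther out in most. On the retention side fatostatin was nearest for 11 of the higher genes, betulin for 9 and 25-HC for 8, whereas the 9 lower genes had 25-HC nearest in 5 and betulin in 4.

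The folding machinery of the endoplasmic reticulum also had more members apart than all genes, most of them higher in the retention libraries and some lower. The cell division lists described below were more one-sided. Its leading gene, Hspa5, encodes BiP, the chaperone that binds unfolded protein and holds ATF6 inactive. Hspa5 had 1573, 1547 and 1511 CPM with fatostatin, betulin and 25-HC, against 756.2 and 797.4 CPM with PF429424 and 1,10-Phen and 1461 CPM with IL4 alone. The 3 retention libraries were within 0.06 of each other and the protease libraries within 0.08, while the gap was 0.92, or 1.89-fold, with a counting interval of 0.89 to 0.95. It was short of 2-fold with TMM scaling, and the gap was 12.1 times the wider range.

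Sdf2l1, a partner of BiP in the lumen, was the 1 separated member of the list, just inside the limit, with 147.1, 159.4 and 121.8 CPM in the retention libraries, against 60.6 and 50.9 CPM in the protease libraries and 138.2 CPM with IL4 alone. Some of its estimated counts are not whole. Creld2, a secreted chaperone induced by unfolded protein, was the first gene outside the limit at a gap of 0.93, with 85.9, 92.6 and 81.0 CPM against 42.3 and 39.2 CPM and 74.0 CPM with IL4 alone. The ranges of both genes were under 0.4 on either side. With library totals 3 members of the list were separated, Hspa5 at a gap of 1.10 and Creld2 at 1.04 among them, and with log2(FPKM + 1) there were also 3. At the lower limit the nearest genes by the same rule were Aqp9, inside at a gap of -1.02, and Pira2, outside at -0.92.

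Of the 28 genes of the list of ATF6 and XBP1 targets, 27 were compared, and Derl3 stayed under the filter. Of the 27, 15 lay apart and higher in the retention libraries, against 10.9% of all genes, 6 lay apart and lower, against 10.5%, and 6 overlapped. The median side difference was 0.27, and 0.01 over all genes. Hsp90b1 (GRP94, a chaperone of secreted proteins) had 1673, 1592 and 1200 CPM against 911.3 and 923.6 CPM, with the value for 25-HC between the other retention libraries and the protease pair. Pdia3, a disulfide isomerase of glycoproteins, had 1128, 1146 and 874.2 CPM against 638.2 and 683.2 CPM, and Dnajb11, a co-chaperone of BiP, 173.8, 169.6 and 149.6 CPM against 119.4 and 109.5 CPM. Calr, calreticulin, had 2424, 2342 and 1652 CPM against 816.4 and 1454 CPM, so that its protease libraries were farther apart than the 1,10-Phen and 25-HC libraries were.

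The 6 members on the opposite side of zero included the sensor itself. Atf6 had 98.9, 95.3 and 125.8 CPM in the retention libraries, against 158.8 and 178.6 CPM in the protease libraries and 110.8 CPM with IL4 alone, a gap of -0.34. Dnajb9, a BiP co-chaperone of the IRE1 branch, had 45.2, 48.3 and 66.3 CPM against 88.1 and 88.0 CPM, a gap of -0.41. P4hb, a protein disulfide isomerase, had 672.6, 716.5 and 697.2 CPM against 906.8 and 1472 CPM. Derl1 and Hspa13 lay apart in the same direction at -0.35 each, and Derl2 at a distance within counting error. Xbp1, the transcription factor of the IRE1 branch, had 207.4, 194.8 and 207.1 CPM against 177.3 and 171.3 CPM, so ATF6 and XBP1 messages lay on opposite sides.

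**Figure D4:**
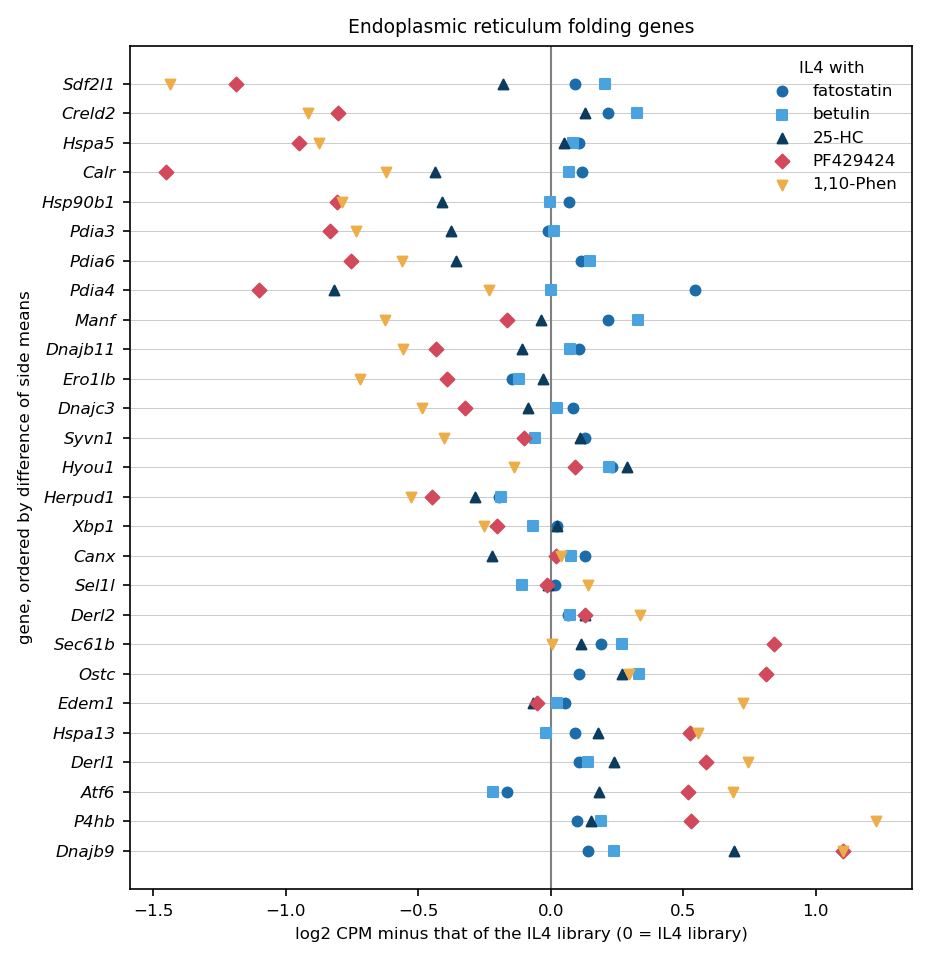
Each row is 1 of the 27 compared genes of endoplasmic reticulum folding and each symbol 1 compound library, on a log2 CPM scale minus the IL4 library, which is the grey line at 0. The retention symbols lie near 0 for most genes, both protease symbols lie left of them for 15 genes, with Sdf2l1, Creld2 and Hspa5 at the top, and right of them for 6, with Dnajb9 at the bottom.

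Promoters of these genes were searched for the endoplasmic reticulum stress response element, the letters through which ATF6 and XBP1 are known to act with the factor NF-Y: CCAAT, 9 bases of any kind, then CCACG, on both strands. A RefSeq promoter (GRCm38.p6, 250 bases before to 50 after the start) was at hand for 22 of the 28 genes, and 10 held the letters, 45.5% of those genes. Of all 27025 genes with such a promoter, 37 held them (0.137%). The list was chosen as targets of ATF6 and XBP1, so a raised share was built in and lends no support of its own. The element is shown for Hspa5 and Creld2, the members with the clearest split besides Sdf2l1, for Hsp90b1, which holds it once on each strand, and for Canx (calnexin), which holds it without a split. Each sequence runs 5′ to 3′ in the direction of transcription and capitals mark the element. They come from chr2:34771840-34772139 (plus strand, Hspa5), chr15:88819396-88819695 (plus strand, Creld2), chr10:86705395-86705694 (minus strand, Hsp90b1) and chr11:50325624-50325923 (minus strand, Canx).
Hspa5: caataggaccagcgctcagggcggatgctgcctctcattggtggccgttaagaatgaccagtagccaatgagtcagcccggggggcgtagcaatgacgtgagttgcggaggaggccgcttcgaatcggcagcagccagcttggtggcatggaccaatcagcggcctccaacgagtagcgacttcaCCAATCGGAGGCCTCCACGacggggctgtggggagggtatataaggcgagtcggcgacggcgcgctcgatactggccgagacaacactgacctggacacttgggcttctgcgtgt
Creld2: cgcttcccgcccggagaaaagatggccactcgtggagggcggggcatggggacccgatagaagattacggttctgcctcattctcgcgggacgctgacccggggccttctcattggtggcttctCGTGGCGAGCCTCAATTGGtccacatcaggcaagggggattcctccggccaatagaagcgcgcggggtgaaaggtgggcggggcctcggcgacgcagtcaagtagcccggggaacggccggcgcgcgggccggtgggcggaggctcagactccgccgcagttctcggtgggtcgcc
Hsp90b1: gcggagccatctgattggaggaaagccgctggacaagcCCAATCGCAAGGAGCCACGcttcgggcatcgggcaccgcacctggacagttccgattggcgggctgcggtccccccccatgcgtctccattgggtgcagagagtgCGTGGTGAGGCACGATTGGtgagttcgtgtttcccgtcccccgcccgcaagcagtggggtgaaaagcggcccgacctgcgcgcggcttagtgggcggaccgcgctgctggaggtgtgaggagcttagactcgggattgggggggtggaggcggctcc
Canx: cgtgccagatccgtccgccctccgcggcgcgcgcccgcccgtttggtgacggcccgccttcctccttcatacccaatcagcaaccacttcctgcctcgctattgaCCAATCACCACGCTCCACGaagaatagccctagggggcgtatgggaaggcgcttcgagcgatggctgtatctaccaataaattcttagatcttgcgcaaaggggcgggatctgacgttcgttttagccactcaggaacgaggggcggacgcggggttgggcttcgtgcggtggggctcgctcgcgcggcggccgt
The element begins at position -65 from the start in Hspa5, -126 in Creld2, -212 and -107 in Hsp90b1 and -145 in Canx. CCAAT alone, which is part of the element, occurred in the promoters of 20 of the 22 genes and of 41.1% of all genes.

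Over all genes compared, 10.9% lay apart and higher in the retention libraries and 10.5% lower, the shares beside which the counts below stand. Of the 10 genes with the element, 9 were compared, and 8 of them lay apart and higher, none lower. These were Hspa5, Creld2, Hsp90b1, Pdia6, Dnajc3, Ero1lb, Calr and Syvn1, the last with a gap of 0.04 within counting error. Canx was the exception, with 778.6, 749.5 and 610.2 CPM in the retention libraries, against 721.5 and 731.0 CPM in the protease libraries. The median side difference of the 9 was 0.63. Of the 12 compared members whose promoter lacked the letters, 5 lay apart and higher and 3 lower, with a median of 0.06, and Sdf2l1 was among the 5. Outside the list 27 genes held the element, 6 of them were compared, and 1, Xlr3b, lay apart and higher at 3.15, 2.20 and 1.96 CPM against 1.72 and 1.66 CPM. A match is a description of the letters, not of binding. The element that ATF4 is known to bind with C/EBP factors, TTGCATCA on either strand, was present in 5 of 26 genes of the ATF4 list with a promoter (19.2%) and in 1.03% of all genes. The choice of that list likewise favoured a raised share.

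Genes of the integrated stress response, which ATF4 switches on when amino acids or protein folding fail, were mostly lower in the retention libraries. Of 30 listed genes 28 were compared, and 16 lay apart and lower, against 10.5% of all genes, and none higher. The 16 are 57.1% of the members compared. With library totals 10 lay apart and lower (35.7%), against 4.34% of all genes, and none was separated. The median side difference was -1.07. Chac1, which degrades glutathione, was the 1 separated member, with 0.66, 1.55 and 6.60 CPM in the retention libraries, against 14.6 and 15.1 CPM in the protease libraries and 0.51 CPM with IL4 alone.

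The list was graded inside the retention libraries, with a median log2 difference from the IL4 library of 0.15, 0.33 and 0.90 for fatostatin, betulin and 25-HC, against 1.06 and 1.58 for PF429424 and 1,10-Phen. Asns, asparagine synthetase, had 25.1, 45.0 and 115.5 CPM with fatostatin, betulin and 25-HC, against 201.9 and 183.2 CPM with PF429424 and 1,10-Phen and 21.7 CPM with IL4 alone. Its gap was -0.66 and its retention range 2.20. Phgdh, the first enzyme of serine synthesis, had 21.9, 26.9 and 41.5 CPM against 118.0 and 68.8 CPM, a gap of -0.73. Trib3, a pseudokinase induced by ATF4, had 3.91, 7.78 and 32.6 CPM against 34.4 and 127.7 CPM, where 25-HC and PF429424 were within counting error. Atf4 itself overlapped, with 203.7, 301.0 and 452.9 CPM against 433.9 and 544.9 CPM. Ddit3 (CHOP) overlapped as well, with 26.5, 33.1 and 73.8 CPM against 46.1 and 62.5 CPM, the highest of the 5 being 25-HC.

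The other separated genes that were lower in the retention libraries belong to no single group. Egln3, a prolyl hydroxylase that marks hypoxia-inducible factor for destruction, had 1.60, 1.83 and 1.96 CPM in the retention libraries, against 8.02 CPM with PF429424 and 617.5 CPM with 1,10-Phen, and 1.16 CPM with IL4 alone. Its gap of -1.98 was the widest in this direction, but the range inside the protease libraries was 6.25. Ugt2b35, an enzyme of glucuronidation, had 1.65, 1.69 and 1.73 CPM against 5.86 and 9.91 CPM, with a retention range of 0.07. Cox6a2, the muscle form of a subunit of cytochrome oxidase, had 1.13, 0.75 and 1.68 CPM against 7.43 and 5.25 CPM, and Tox2, an HMG-box protein, 0.33, 1.08 and 0.96 CPM against 3.74 and 4.18 CPM. Aqp9, a channel for water and glycerol, had 1.18, 1.73 and 5.01 CPM against 10.3 and 25.2 CPM. Ugt2b35, Cox6a2, Gng5-ps, LOC100862446 and Gm4705 had counts that are not whole in at least 1 library, and their levels are uncertain where reads are shared with near copies.

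Cholesterol synthesis, the classic set of SREBP targets, held no separated gene. Of its 23 genes, all compared, 4 lay apart and higher in the retention libraries (17.4%, against 10.9% of all genes) and 19 overlapped. With library totals 10 lay apart and higher (43.5%), against 20.04% of all genes. The median side difference was 0.25. Mvd, which makes the isoprene unit isopentenyl diphosphate, had the widest gap of the list, 0.63, with 17.4, 18.9 and 19.0 CPM in the retention libraries, against 11.2 and 7.98 CPM in the protease libraries and 18.4 CPM with IL4 alone. Hmgcs1, an early enzyme of the pathway, overlapped at 55.0, 52.0 and 42.6 CPM against 44.7 and 36.2 CPM.

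Of 14 compared genes that hold, carry, cut or regulate SREBP, 2 lay apart and higher in the retention libraries. These are 14.3%, against 10.9% of all genes. Lower were 3 (21.4%, against 10.5%), 9 overlapped, and 0 were separated. With library totals 2 lay higher and 2 lower (14.3% each), against 20.04% and 4.34% of all genes. Mbtps1, site-1 protease, had 81.1, 80.7 and 78.2 CPM in the retention libraries, against 91.5 and 93.2 CPM in the protease libraries, a gap of -0.17 with ranges of 0.05 and 0.03. Mbtps2, site-2 protease, had 48.5, 40.9 and 51.0 CPM against 56.7 and 61.3 CPM. Insig1, both a target of SREBP and its anchor, had 39.6, 34.7 and 29.7 CPM against 28.4 and 20.9 CPM, a gap of 0.07 that was within counting error (-0.10 to 0.23), with a difference of side means of 0.50. Insig2, the other anchor, overlapped at 30.2, 28.6 and 27.3 CPM in the retention libraries, against 25.0 and 52.8 CPM in the protease libraries, a range of 1.08 inside the protease libraries. Scap, Srebf1 and Srebf2 overlapped.

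Of 16 compared genes of fatty acid synthesis 5 lay apart and higher in the retention libraries (31.25%, against 10.9% of all genes). Of 11 LXR targets 4 lay higher (36.4%) and 1 lower (9.09%, against 10.5%), with 0 separated in both lists. With library totals the shares that lay higher were the same, against 20.04% of all genes. Scd1, the desaturase that makes oleate, had 0.56, 0.80 and 11.6 CPM in the retention libraries, against 0.10 and 0.27 CPM in the protease libraries. Abcg1, an exporter of sterol and a target of the sterol-sensing receptor LXR, had 123.6, 142.3 and 589.4 CPM against 85.5 and 88.9 CPM and 107.8 CPM with IL4 alone. Both lay apart, by 0.86 (within counting error) for Scd1 and 0.47 for Abcg1, but 25-HC exceeded the other retention libraries by more than that, with retention ranges of 4.15 and 2.25. Abca1, the other main exporter, overlapped, with 46.6, 31.7 and 603.4 CPM against 5.56 and 53.9 CPM.

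Cell division genes lay mostly on 1 side, but none of those listed was separated at 2-fold. All 32 genes of the G2/M list lay apart and higher in the retention libraries, against 10.9% of all genes, and of 40 DNA replication genes 29 did, with 0 separated in either list. The median range of the G2/M genes was 0.63 inside the retention libraries and 2.93 inside the protease libraries. Mki67, the proliferation antigen Ki-67, had 378.6, 450.7 and 323.4 CPM in the retention libraries, against 223.9 CPM with PF429424 and 5.03 CPM with 1,10-Phen, and 571.4 CPM with IL4 alone. PF429424 therefore stood below 25-HC by a gap of 0.53 (counting interval 0.48 to 0.58), and 1,10-Phen far below all others. Gaps varied between division genes, at 0.75 for Ndc80, 0.67 for Prc1, 0.26 for Ccna2 and 0.06 for Pbk. The gap of Pbk was within counting error (-0.20 to 0.33), so lying apart is not in every case a difference from PF429424 beyond it. Birc5 (survivin) lay apart by only 0.01, at 24.9 CPM with 25-HC and 24.7 CPM with PF429424.

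Alternative activation, which IL4 induces, gave no split. Of 36 listed genes 32 were compared, 2 lay apart and higher, 1 lower, and 29 overlapped, against 10.9% and 10.5% of all genes, with 0 separated. Arg1, arginase, had 5170, 3297 and 2071 CPM in the retention libraries, against 1984 and 8180 CPM in the protease libraries. Retnla, a secreted protein induced by IL4, had 317.7, 147.4 and 15.3 CPM against 10.9 and 23.5 CPM and 470.5 CPM with IL4 alone, and Mrc1, the mannose receptor, 2479, 1256 and 471.7 CPM against 1060 and 951.0 CPM. All 3 genes were highest with fatostatin and lowest with 25-HC among the retention libraries. The protease libraries lay on either side of 25-HC for Retnla and between betulin and 25-HC for Mrc1.

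The macrophage markers gave the same grading for complement C1q. C1qa had 253.1, 204.1 and 87.3 CPM in the retention libraries, against 64.3 and 36.3 CPM in the protease libraries and 379.6 CPM with IL4 alone, and C1qb and C1qc lay apart in the same direction. In all, 6 of 20 macrophage markers lay apart and higher (30.0%, against 10.9% of all genes), and 14 overlapped. The others of the 6 were Aif1, Fcgr1 and Mertk. With library totals 8 of 20 lay higher (40.0%), against 20.04% of all genes. Trem2, a lipid receptor of macrophages, was level at 395.3, 391.6 and 395.4 CPM against 412.2 and 391.8 CPM.

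Several other lists had more members apart and lower in the retention libraries than the 10.5% of all genes. Of 23 targets of NRF2, the regulator of antioxidant genes, 7 lay apart and lower (30.4%), and of 31 hypoxia targets 8 did (25.8%). With library totals these counts were 5 (21.7%) and 6 (19.4%), against 4.34% of all genes. The median log2 difference of the NRF2 targets from the IL4 library was -0.26 for fatostatin, 7.6e-05 for betulin and -0.11 for 25-HC, against 0.05 for PF429424 and 1.79 for 1,10-Phen, so that PF429424 stood close to betulin. For the hypoxia targets it was 0.06, 0.20 and 0.29 in the retention libraries, against 0.33 and 3.05 in the protease libraries, so that 1,10-Phen stood far above the other 4 compounds. Of 13 genes of metal response 3 lay apart and lower (23.1%), among them Fth1 and Ftl1, which are also on the NRF2 list. Fth1, ferritin heavy chain, had 7081, 8089 and 7039 CPM in the retention libraries, against 11182 and 18540 CPM in the protease libraries and 6350 CPM with IL4 alone. None of 9 genes of MHC class II, of 15 cytosolic heat shock genes or of 6 aryl hydrocarbon receptor targets lay apart in either direction. Of 44 lysosomal genes 2 lay apart and higher (4.55%, against 10.9% of all genes) and 7 lower (15.9%, against 10.5%). With library totals the lysosomal counts were 5 (11.4%) and 3 (6.82%), against 20.04% and 4.34% of all genes. Of 12 MHC class I genes 3 lay lower (25.0%), of 18 glycolytic genes 3 (16.7%), and of the 10 genes of a list of CREB3 family and other site-1 protease substrates, Atf6 included, 2 (20%). With library totals these counts were 2 (16.7%), 1 (5.56%) and 2 (20%), against 4.34% of all genes, so the glycolytic share was near that of all genes.

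**Figure D5:**
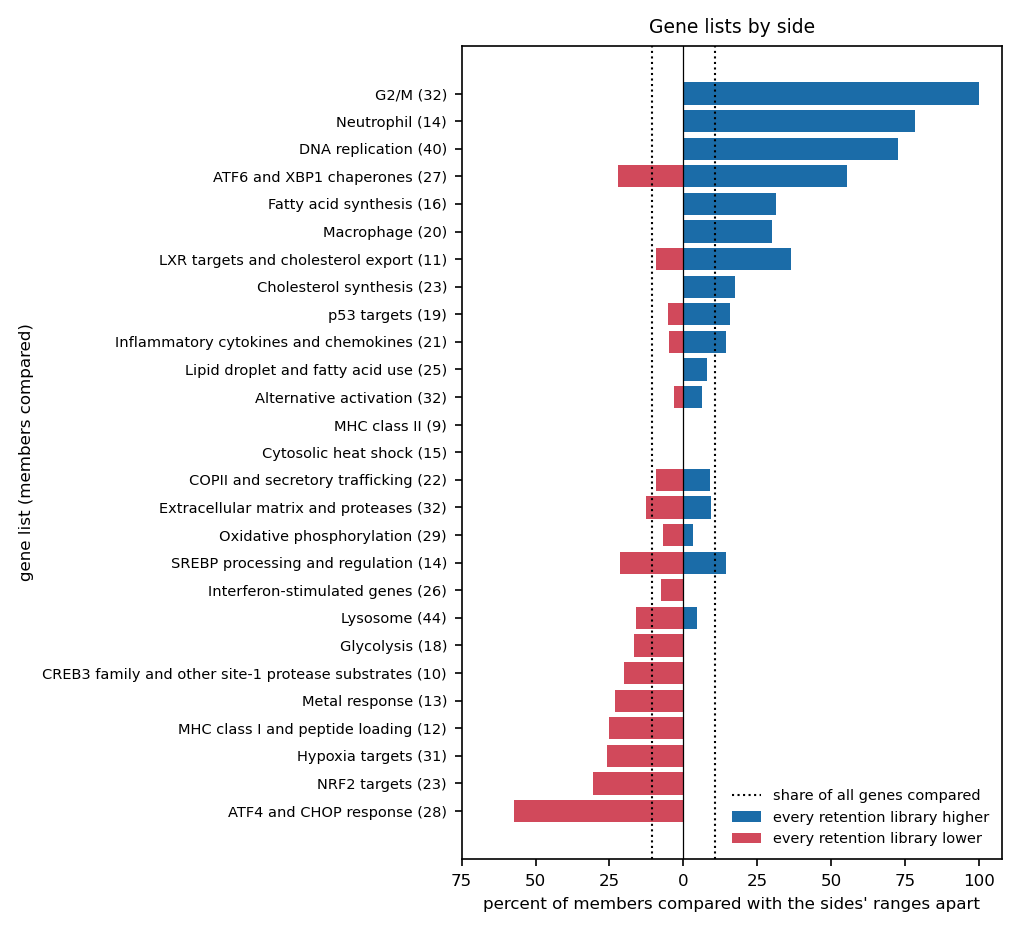
Bars give the percent of compared members of each list of at least 9 compared genes whose ranges lay apart, to the right where every retention library was higher and to the left where every one was lower, and dotted lines give the shares of all genes, 10.9% and 10.5%. G2/M, neutrophil, DNA replication and endoplasmic reticulum genes reach farthest to the right and the ATF4 list farthest to the left.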

How the data were processed

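RNA of 6 macrophage cultures was sequenced, 1 library each. The deposited tables hold estimated counts (expected counts) per gene, not scaled between libraries, per the file headers, and FPKM, per the file headers, which were used in 1 alternative only. Per the submitters' processing notes the tools were RSEM 1.2.12, Bowtie2, HISAT2 and DESeq2, with no step stated for each. In each library 30.5% to 32.0% of values were not whole numbers, and no source used here says whether strand was kept. Gene IDs follow RefSeq on GRCm38.

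Counts were rounded and scaled by TMM over the 6 libraries (edgeR 4.0.16, R 4.3.3). CPM in the text uses these scaled totals, and log2 CPM a prior count of 2. Genes with at least 1 CPM by library totals in at least 1 library were compared. The side test was edgeR's quasi-likelihood test with Benjamini-Hochberg adjustment, and DESeq2 1.42.0 was an alternative. Python 3.11.15 with SciPy 1.17.1 was used for the rest. The procedures were tested on simulated data. The 5 cultures are not stated to be from separate animals, so errors describe these libraries only.

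The sides, the 35 gene lists (682 of 690 entries found) and the rules were chosen with earlier results of these data known. Named genes are the 14 separated genes with the widest gaps and the 8 with the highest ratio of gap to range in each direction, at a CPM of at least 5, the 4 separated and 3 other leading members of each list, and fixed genes of the SREBP pathway. Other separated genes and list members were named after their values were seen. Counting intervals and limits cover counting error only, since reads are not independent molecules.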

Additional observations from a re-analysis of the deposited data

Results flagged for a closer look

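For 12 of the genes named or separated above, every retention library was on one side of the IL4 library and both protease libraries on the other, each beyond counting error. The value is the gap, on the log2 scale, and the difference was not tested, with 1 library per compound. Above IL4 in the retention libraries and below it in the protease libraries were Ltf (3.13), Lcn2 (2.77), Camp (2.63), Cd177 (2.61), Ngp (2.31), S100a9 (1.93), S100a8 (1.85), Creld2 (0.93), Hspa5 (0.92) and Abcg1 (0.47). Below IL4 in the retention libraries and above it in the protease libraries were Gm4705 (-1.17) and LOC100862446 (-1.12), whose reads are shared with other genes. Over all 11898 genes compared, 12 had the first arrangement and 14 the second.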

How the results depend on the processing

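No paired analysis was possible because each treatment is 1 library and the labels carry no shared replicate number. The 28 higher and 9 lower genes stayed at 28 and 9, the same genes, with DESeq2 size factors and with TMM over the 5 compound libraries. Library totals gave 37 and 7, losing Aqp9 and Chac1. Without a filter there were 28 and 11, and with a prior count of 0.5 there were 31 and 9, or 20 and 8 with a prior count of 10. A CPM of at least 5 left 12 higher and 8 lower, all among the 37, and log2(FPKM + 1) gave 14 and 4, of which 11 and 4 were among them. A gap of 1.5-fold gave 70 and 23, and one of 4-fold 8 and 0. The neutrophil list had 8 separated members, also with DESeq2 size factors and with library totals. It had 6 with log2(FPKM + 1) and 4 at 4-fold. Prtn3 and Chil1, among the 8, fell under the filter of 5 CPM.

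Leaving out 1 library at a time, which can only add separated genes, gave 36 to 760 higher and 12 to 509 lower, the highest without PF429424, and 8 to 10 separated neutrophil genes. Without 25-HC there were 89 and 28, without 1,10-Phen 62 and 27, without fatostatin 45 and 12, and without betulin 36 and 20. The edgeR count of 0 stayed 0 under 2 other scalings and 2 other filters and went between 0 and 1445 on leaving out 1 library, 1445 without PF429424, when the lone protease library is assumed to vary like the others. The DESeq2 Wald test called 44. No separated gene was reversed under any setting run, and leaving out 1 library could not have reversed one. Reversal was not checked for named genes that were not separated. The limit throughout is 1 culture per compound, which no depth replaces, and low genes such as Cebpe or Prtn3 rest on few counts.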
